A study of Mus musculus with 10 samples.

Results

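The 10 genes described here belong to the oxidative stress response governed by the transcription factor NRF2. They are *Nfe2l2* and *Keap1*, which encode NRF2 and its sensor, and the target genes *Hmox1*, *Nqo1*, *Gclc*, *Gclm*, *Txnrd1*, *Slc7a11*, *Srxn1* and *Gsr*. They were chosen by gene name and not by a cut on their levels, though earlier results of these data were known. All 10 were found among the 23195 genes measured. RNA-seq was performed on hearts of male embryos at embryonic day 13.5, 5 of them wild type and 5 *Nos1ap* null, all of the strain C57BL6/J. The null embryos were homozygous for the tm1d allele, which lacks an internal exon in every tissue after recombination with CMV-Cre, so the change is not limited to the heart. The wild-type embryos carried neither the deletion nor a floxed allele as far as their labels say, and the labels name no treatment for either group. The comparison asked which heart transcripts differ between null and wild-type embryos at this age.

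Cells make reactive oxygen species continuously, and NRF2 is the main switch for the enzymes that remove them. In the resting cell KEAP1 binds NRF2 and passes it to a CUL3 ubiquitin ligase, so that NRF2 is degraded as fast as it is made. Oxidants and electrophiles modify cysteines of KEAP1, NRF2 then accumulates, pairs with a small MAF protein and binds antioxidant response elements near its target genes, among them genes for glutathione synthesis, thioredoxin reduction and heme breakdown. In the heart, a muscle with many mitochondria, this network is known as part of the antioxidant defense. Because NRF2 is controlled mainly as a protein, the messages of its targets are its usual readout.

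Of the 10 genes, 7 have a promoter in the RefSeq set (build GRCm38.p6), in 9 windows of 300 bases that start 250 bases before the transcription start. The core of the antioxidant response element, TGACNNNGC on either strand, was found in 4 of these 9 windows, belonging to *Nfe2l2*, *Gclm*, *Txnrd1* and *Srxn1*, and in 12.4% of all 32851 windows. A longer form bound by NRF2 with a small MAF, TGANTCAGC, which contains the AP-1 motif TGANTCA, was found in 1 of the 9 windows, that of *Srxn1*, and in 1.19% of all windows. The AP-1 motif alone was also found only in the *Srxn1* window among the 9, against 7.81% of all windows. The motif TGATGNAA, a form bound by ATF4 with a C/EBP partner, was found in the *Slc7a11* window and in 3.97% of all windows. The whole upstream stretches of *Srxn1* and *Gclm* are shown because these genes had 2 of the 3 largest differences below, and short stretches of the others show their motif. Each reads 5′ to 3′ on the strand of its gene and ends before the transcription start, with capitals for every match, so that a match on the opposite strand appears as its reverse complement.
*Srxn1*, chr2:152105274-152105523, plus strand: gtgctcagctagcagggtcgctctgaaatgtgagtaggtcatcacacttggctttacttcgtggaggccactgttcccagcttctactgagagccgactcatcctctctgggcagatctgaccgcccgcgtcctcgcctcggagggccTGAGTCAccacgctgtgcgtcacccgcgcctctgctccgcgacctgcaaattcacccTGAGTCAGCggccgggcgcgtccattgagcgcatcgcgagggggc
*Gclm*, chr3:122245307-122245556, plus strand: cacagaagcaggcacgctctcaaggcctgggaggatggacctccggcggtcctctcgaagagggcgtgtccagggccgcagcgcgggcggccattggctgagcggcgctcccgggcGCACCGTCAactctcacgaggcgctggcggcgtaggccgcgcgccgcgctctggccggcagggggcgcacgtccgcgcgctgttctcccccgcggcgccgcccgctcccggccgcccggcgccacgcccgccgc
*Nfe2l2*, chr2:75704879-75704913, minus strand: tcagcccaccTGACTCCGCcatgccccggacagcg
*Txnrd1*, a window within the gene, chr10:82859098-82859138, plus strand: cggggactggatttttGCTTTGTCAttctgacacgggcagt
*Slc7a11*, chr3:50443637-50443695, minus strand: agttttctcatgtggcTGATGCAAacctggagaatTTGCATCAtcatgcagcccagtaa
In *Srxn1* the longer form starts 45 bases before the transcription start, and a second AP-1 match starts 102 bases before it. The core match of *Srxn1* lies after the start and is not printed. A match is only a run of letters, and no binding was measured. The windows of *Keap1* and *Nqo1* held none of these motifs, which says only that the letters are not in these 300 bases.

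The values are normalized counts, that is, read pairs assigned to a gene scaled by a size factor for library depth, and the deposited table gives their mean in each group. Because these means carry 15 digits, the whole counts of single libraries could be recovered for most genes. A set of 5 counts was taken where at most 0.01 other sets would be expected to fit as well by chance. Counts were recovered for 8 of the 10 genes in this way. *Hmox1* missed that limit narrowly, with 0.0104 other sets expected in wild type and 0.0140 in null, and its single-library values rest on a looser limit of 0.05. *Gclm* stayed unsettled and is described by its group means alone. The libraries are numbered 1 to 5 within each group by falling size factor, which is not the replicate number of the labels. Nothing in the sources says whether embryos shared a litter, so the tests measure the spread between these 10 libraries.

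Each library held between 11328000 and 14023000 read pairs on genes, estimated from the summed means and their scaling. *Nos1ap* itself separated the groups, at 144 ± 14.4 (SD, n = 5) normalized counts in wild type and 39.8 ± 5.20 (n = 5) in null, with a log2 fold change of −1.83 ± 0.12 (SE, limma adjusted *P* = 5.5e-09). Under the threshold of the study, a false discovery rate of 1% and an absolute log2 fold change over 1, 3 of 10545 protein-coding genes tested were called (0.0284%). Troponin and myosin genes of cardiac muscle were abundant in both groups, *Tnnt2* at means of 37532 in wild type and 37652 in null. Wild-type library 3 stood apart in neuronal and glial markers, with a summed level of 756 normalized counts over 6 genes against at most 209 in every other library. Null library 2 stood apart in markers of red blood cell precursors, which are described with the genes they moved with.

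Measured per length of exon, the 10 genes covered a wide range in the wild-type heart. *Gsr*, whose product glutathione reductase returns oxidized glutathione to its reduced form, stood highest with 245 normalized counts per kb. *Txnrd1*, the cytosolic thioredoxin reductase, followed with 232, and the ranges of these 2 genes over the 5 libraries overlapped. *Nfe2l2* at 198, *Hmox1* at 174 and *Keap1* at 159 counts per kb formed the next group, in which each gene overlapped with its neighbor. The 2 subunits of the enzyme that makes the first step of glutathione synthesis were close to each other, the modifier *Gclm* at 86.2 and the catalytic *Gclc* at 75.1 counts per kb, and without single-library values for *Gclm* their order cannot be read. *Srxn1*, which encodes sulfiredoxin, the repair enzyme of overoxidized peroxiredoxins, reached 35.5, and *Nqo1*, a quinone reductase, 18.3 counts per kb. Their ranges overlapped as well. *Slc7a11*, the cystine transporter, was lowest at 0.530 counts per kb, below every library of *Nqo1*. Among 16928 protein-coding genes with an exon length, 86.6% lay below *Gsr* and 10.2% lay below *Slc7a11*. The means of the null hearts kept nearly this order per kb. The exception was *Hmox1*, which at 247 passed *Txnrd1* at 234 and *Nfe2l2* at 205 to stand just under *Gsr* at 253. Single wild-type libraries of *Hmox1* already ranged from 139 to 254 counts per kb at the looser limit, so its place in the order is not settled.

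**Figure D1:**
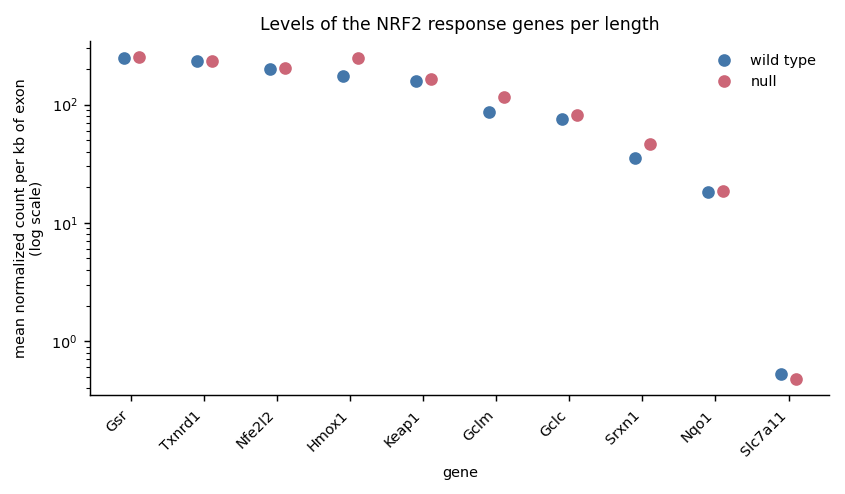
Mean normalized count per kb of exon (log scale) of the 10 NRF2 response genes, ordered by the wild-type level, with 1 point per group mean. The genes span from 245 counts per kb for *Gsr* to 0.530 for *Slc7a11*, and the groups visibly part for *Hmox1*, *Gclm* and *Srxn1*.

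The messages of the NRF2 switch itself differed little. *Nfe2l2* was measured at 708, 769, 762, 733 and 788 normalized counts in wild-type libraries 1 to 5 and at 782, 764, 739, 866 and 738 in the null libraries. Only null library 4 lay above the wild-type range. The means were 752 ± 31.6 in wild type and 778 ± 52.3 (SD, n = 5) in null, and an exact two-sided permutation test over all 252 arrangements of the libraries gave *P* = 0.405. The limma log2 fold change was 0.05 ± 0.05 (SE), with a 95% interval from −0.05 to 0.14. *Keap1* was among the steadiest of the genes, at 743, 740, 736, 766 and 745 normalized counts in wild type and 791, 763, 750, 761 and 786 in null. All 5 null libraries lay above the wild-type mean and 2 of them above the highest wild-type library. Its means of 746 ± 11.7 and 770 ± 17.5 (SD, n = 5) differed by 3.30%, with *P* = 0.0317 in the exact permutation test, the only one of 9 such tests under 0.05 and unadjusted for them. Leaving out any 1 of 6 of the 10 libraries raised this to 0.0635. The spread of *Keap1* between wild-type libraries, a CV of 1.56%, was smaller than the 3.63% that counting alone gives, and limma, which draws each gene's spread toward that of genes of like level, gave a log2 fold change of 0.05 ± 0.04 (SE, unadjusted *P* = 0.216, adjusted *P* = 0.998).

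*Hmox1* had the largest log2 ratio of deposited means of the 10 genes, 0.51. Its product, heme oxygenase 1, opens the heme ring and releases iron, biliverdin and carbon monoxide. Its deposited means were 305 normalized counts in wild type and 432 in null, a ratio of 1.42. With the counts taken at the looser limit, the wild-type libraries stood at 322, 257, 257, 445 and 243 and the null libraries at 355, 473, 364, 400 and 571 normalized counts. Every null library was above the wild-type mean, and the groups overlapped because wild-type library 4 was higher than 3 of the null libraries. The SD was 84.2 in wild type and 90.2 in null, a CV of 27.6% and 20.9% where counting gives 5.67% and 4.86%. The exact permutation test gave *P* = 0.0556 on normalized counts, and the same exact test gave 0.0476 on their log2 values. The log2 fold change was 0.52 ± 0.20 (SE), with a 95% interval from 0.07 to 0.97, and the difference did not pass adjustment over all genes (limma adjusted *P* = 0.998, unadjusted *P* = 0.0289). Without wild-type library 4 the log2 fold change was 0.66 (limma unadjusted *P* = 0.00108), and without null library 5 it was 0.41 (limma unadjusted *P* = 0.0556).

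*Srxn1* was also higher in the mean of the null libraries, with null library 2 the highest of all. It was measured at 101, 74.5, 115, 105 and 104 normalized counts in wild type and at 110, 195, 94.8, 113 and 145 in null. Null libraries 2 and 5 lay above every wild-type library, null library 3 lay below the wild-type mean, and the groups overlapped. The means were 100.0 ± 15.2 and 131 ± 40.0 (SD, n = 5), with *P* = 0.159 in the exact permutation test. The limma log2 fold change was 0.36 ± 0.18 (SE), with a 95% interval from −0.02 to 0.74 (unadjusted *P* = 0.0628, adjusted *P* = 0.998). Without null library 2 it was 0.20, and without null library 3 it was 0.46.

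The 2 subunits of glutamate-cysteine ligase were unequal in their differences. The modifier *Gclm* had deposited means of 542 in wild type and 731 normalized counts in null, a ratio of 1.35. Without single-library counts no spread or test was computed for it here, and the authors' own comparison was not used. The catalytic *Gclc* was measured at 275, 258, 273, 325 and 283 normalized counts in wild type and 275, 304, 320, 305 and 340 in null. Of the null libraries 4 lay above the wild-type mean and 1 above the highest wild-type library, so the groups overlapped. Its means were 283 ± 25.2 and 309 ± 23.6 (SD, n = 5), with *P* = 0.135 in the exact permutation test. The limma log2 fold change was 0.13 ± 0.07 (SE, unadjusted *P* = 0.0873, adjusted *P* = 0.998). Without wild-type library 4, its highest wild-type library, it was 0.18, and the exact permutation *P* was then 0.0238.

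For the remaining targets with single-library values the groups overlapped. The reductases of the glutathione and thioredoxin systems were near equal, *Gsr* at means of 674 ± 25.6 and 696 ± 57.7 and *Txnrd1* at 1643 ± 40.8 and 1657 ± 21.6 normalized counts (SD, n = 5). For *Txnrd1* the 95% interval of the log2 fold change ran from −0.03 to 0.06, the narrowest of the genes fitted, and for *Gsr* from −0.06 to 0.15. Null library 1 was highest for *Gsr*, at 786 normalized counts against at most 718 in the other null libraries. *Nqo1* was measured at 27.0, 20.3, 21.4, 42.3 and 31 normalized counts in wild type and 19.8, 50.3, 19.2, 27.9 and 27.2 in null. A single library in each group was high, wild-type library 4 and null library 2, and the means of 28.4 ± 8.90 and 28.9 ± 12.6 (SD, n = 5) hardly differed (exact permutation *P* = 0.960). At this depth the 95% interval of its log2 fold change ran from −0.54 to 0.51, so changes inside this interval, in either direction, are not excluded. *Slc7a11* held only 38 read pairs over the 5 wild-type libraries and 33 over the 5 null libraries, at 7.38 ± 1.5 and 6.62 ± 2.22 normalized counts (SD, n = 5), and was too low for the main limma fit. Its exact permutation *P* was 0.540, and its spread was below that of counting alone in both groups.

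**Figure D2:**
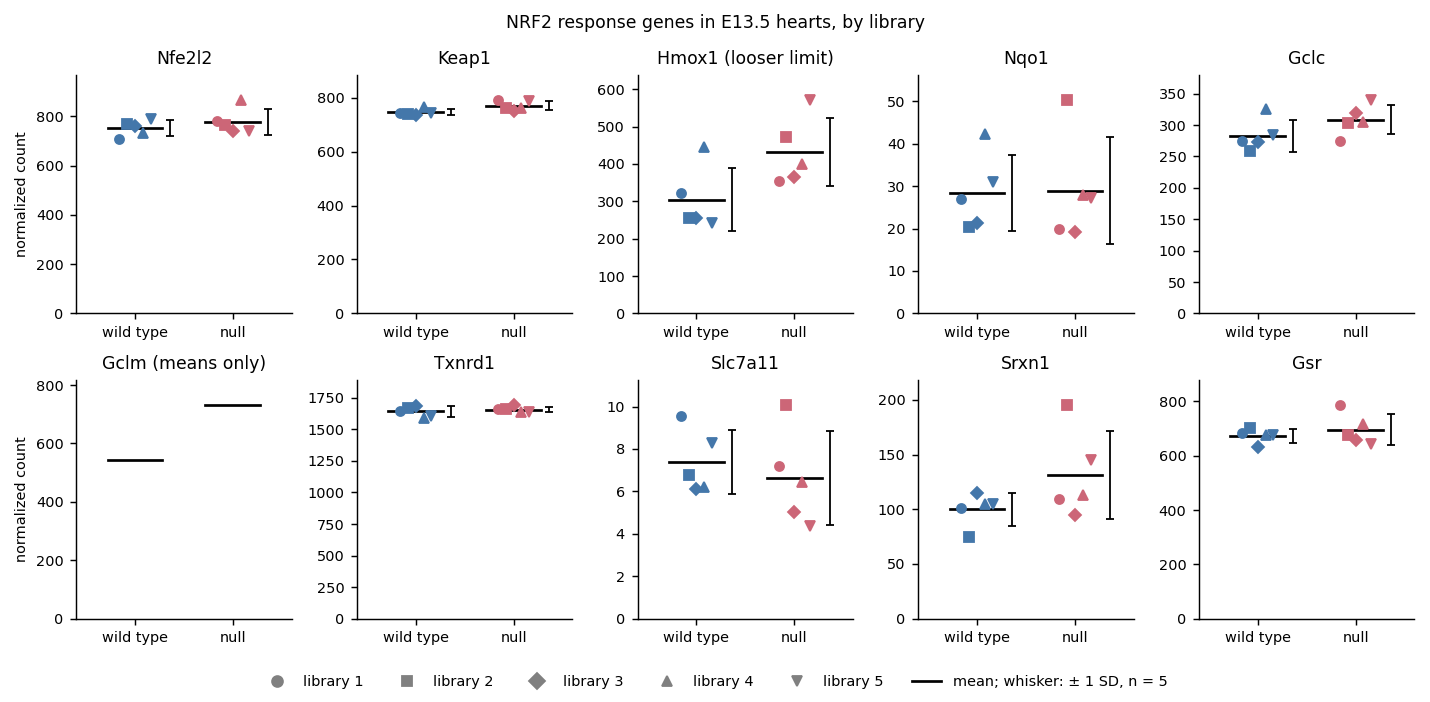
Normalized count of each of the 10 genes in 5 wild-type (blue) and 5 null (red) libraries, with symbols for library number, a line for the group mean and a whisker of 1 SD at the right of each group. *Hmox1* uses counts at the looser limit and *Gclm* has means only. Null library 2 is the highest null library for *Srxn1* (195) and *Nqo1* (50.3), and wild-type library 4 is the highest wild-type library for *Hmox1* (445), *Nqo1* (42.3) and *Gclc* (325).

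As a list, 9 of the 10 genes had a higher deposited mean in null than in wild type, the exception being *Slc7a11*, while 49.5% of all 13299 protein-coding genes with a mean of at least 10 did so. The log2 ratios of *Nfe2l2*, *Keap1*, *Gsr*, *Nqo1* and *Txnrd1* were no larger than 0.0489, the median absolute log2 ratio of all such genes. In the limma fit *Nqo1* was slightly lower in null, at −0.0155. *Hmox1*, *Gclm* and *Srxn1* had a log2 ratio of means over 0.3, a limit chosen after their values were seen, against 1.8% of all such genes. The median log2 ratio of the 9 genes with a mean of at least 10 was 0.05, beside 0.00 over all such genes. None of the 7 genes in the main limma fit was called, at the threshold of the study or at an adjusted *P* under 0.05 (0.0284% of all genes each). None had an unadjusted limma *P* under 0.05 either, against 3.92% of all genes, and the members' counts were also 0 with voom weights. *Hmox1*, fitted under the looser limit, was the only one under 0.05 unadjusted. None of the 9 genes with single-library values had groups that did not overlap, against 0.844% of the genes tested. The list itself was not tested, since its genes were named with earlier results of these data known.

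**Figure D3:**
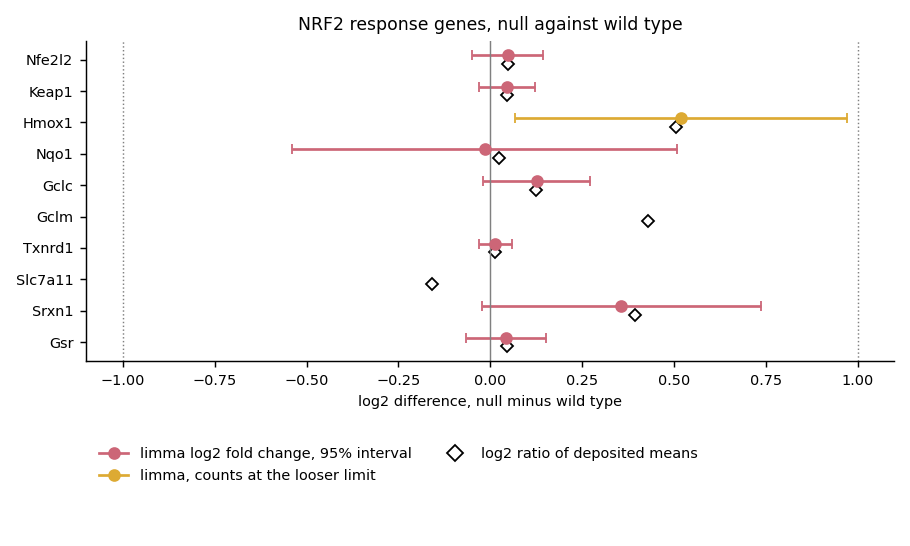
Log2 difference of null minus wild type for each gene, as the limma log2 fold change with its 95% interval (circles, *Hmox1* in yellow at the looser limit) and as the log2 ratio of deposited means (diamonds), with dotted lines at the study's fold change threshold of 1. The interval of *Hmox1*, from 0.07 to 0.97, is the only one that does not reach 0, and no interval reaches 1.

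Null library 2, the highest library for *Srxn1* and *Nqo1*, was also the highest for erythroid genes, and *Hmox1* was high in all 3 libraries that led in these genes. All 24 markers of red blood cell precursors had a mean of at least 10, and 23 of them were higher in null, with a median log2 ratio of 0.70. The exception was the adult globin *Hbb-bs*, at −0.17. The other globins of the list were higher in null, with log2 ratios of 0.44 for *Hba-a1*, 0.73 for the embryonic *Hbb-y* and 0.97 for *Hba-x*. Single-library counts were recovered for 7 of the 24 (*Gata1*, *Klf1*, *Epor*, *Hemgn*, *Rhag*, *Trim58* and *Tspo2*), none of which was at 0 in every library, and none was called. Their summed level was 177, 108, 156, 234 and 82.8 normalized counts in the wild-type libraries and 132, 745, 98.8, 181 and 246 in the null libraries. All 7 were highest in null library 2, and null library 5 and wild-type library 4 followed in the sum. Null library 2 was also highest of all 10 for *Srxn1* and *Nqo1*, null library 5 was highest for *Hmox1*, and these with wild-type library 4 were the 3 highest for *Hmox1*. For *Slc7a11*, null library 2 led by little, with 10 read pairs (10.1 normalized counts) beside 11 (9.57 normalized counts) in wild-type library 1. As a description over the 10 libraries, Pearson's r of log2 values with the erythroid sum was 0.85 for *Srxn1*, 0.75 for *Nqo1* and 0.69 for *Hmox1*. It was 0.39 for *Gclc*, 0.29 for *Slc7a11* and −0.09 for *Txnrd1*. All genes of a library share its RNA and its size factor. Without null library 2, r was 0.60 for *Srxn1*, 0.49 for *Nqo1*, 0.75 for *Hmox1*, 0.51 for *Gclc*, −0.31 for *Slc7a11* and −0.32 for *Txnrd1*.

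Without null library 2, the median log2 ratio of the 7 erythroid genes was 0.12 instead of 1.15, and the ratio of their mean summed levels was 1.09 instead of 1.85. Without both null library 2 and wild-type library 4 these values were 0.32 and 1.26, and without wild-type library 4 alone they were 1.33 and 2.15. Without null library 2 alone, *Hmox1* still had a log2 fold change of 0.48 ± 0.22 (SE, limma unadjusted *P* = 0.0675), while *Srxn1* had 0.20 and *Nqo1* had −0.23. The part of red blood cell precursors in these differences was not tested. In a whole heart, more cells of a type and more RNA per cell cannot be told apart. Macrophages are a source of heme oxygenase 1, and their part in these differences was not tested. Of 12 macrophage markers with a mean of at least 10, 3 were higher and 9 lower in null, with a median log2 ratio of −0.07, and the summed level of all 14 ran from 1223 to 1475 normalized counts in wild type and from 1197 to 1404 in null, with none at 0 in every library.

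**Figure D4:**
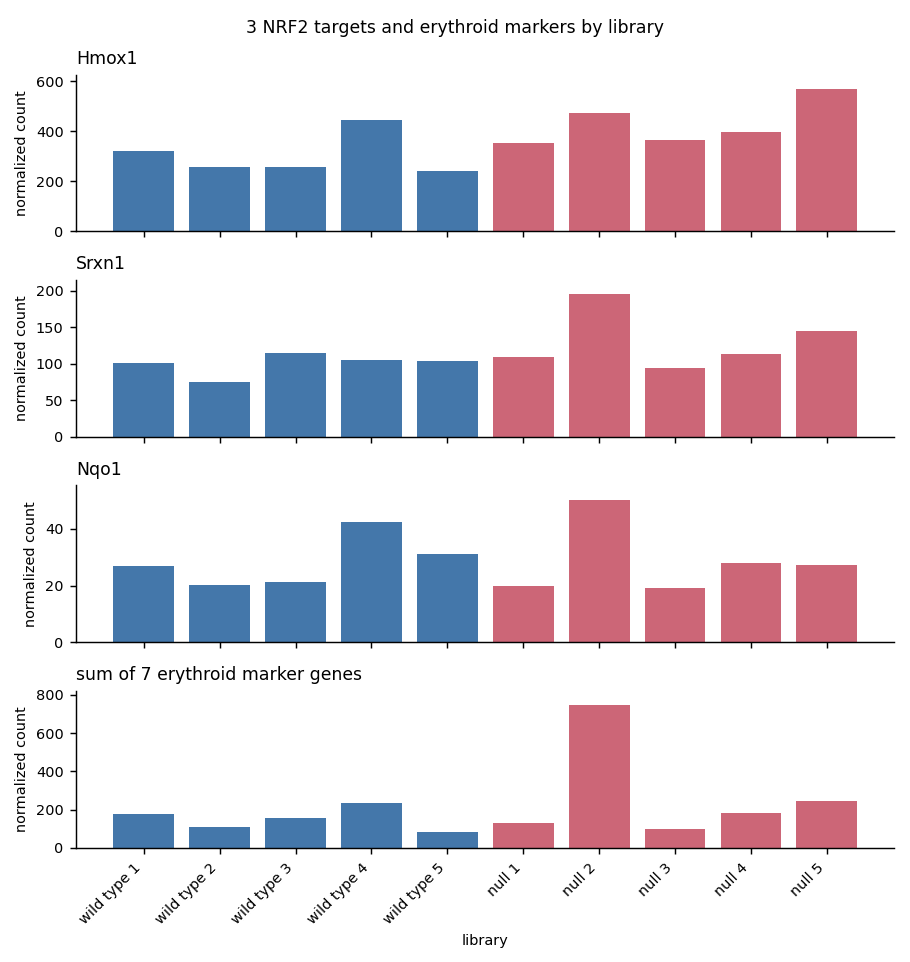
Normalized counts by library of *Hmox1* (counts at the looser limit), *Srxn1* and *Nqo1*, and the sum of 7 erythroid marker genes, as bars for 5 wild-type (blue) and 5 null (red) libraries. Null library 2 is the highest bar for the erythroid sum (745), *Srxn1* and *Nqo1*, and wild-type library 4 is the highest wild-type bar for the erythroid sum (234), *Hmox1* and *Nqo1*.

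The other genes of the network were compared branch by branch. Among 13 regulators and partners of NRF2 with a mean of at least 10, 10 were higher in null and 3 lower, with a median log2 ratio of 0.06, and none of 7 tested was called. The extremes were *Rbx1*, a subunit of the CUL3 ligase, at −0.06, and *Nfe2*, the erythroid relative of NRF2, with deposited means of 65.8 in wild type and 123 normalized counts in null, a log2 ratio of 0.91. *Bach1*, a heme-sensing repressor that competes with NRF2 at *Hmox1*, had a log2 fold change of 0.09 ± 0.04 (SE), the only unadjusted limma *P* under 0.05 among these 7 (0.0478, adjusted *P* = 0.998). Its means were 658 in wild type and 701 in null. *Mafg*, a small MAF partner, had a log2 ratio of 0.13, and *Cul3* one of 0.06.

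The heme and iron genes were all higher in null, 8 of 8, with a median log2 ratio of 0.14 and none of 3 tested called. *Blvrb*, a biliverdin reductase of red blood cells and liver, had the largest log2 ratio, 0.44, with means of 290 in wild type and 393 normalized counts in null, and *Blvra*, the other biliverdin reductase, the smallest, 0.01. *Fech*, which inserts iron into heme, had means of 1246 and 1596 normalized counts (log2 ratio 0.36), and the ferritin heavy chain *Fth1* had means of 7144 and 8499 (log2 ratio 0.25). The other heme oxygenase, *Hmox2*, the constitutive form, had a log2 fold change of 0.02 ± 0.05 (SE, limma adjusted *P* = 0.998). No test was computed here for the genes whose single-library counts were not recovered, and null library 2 enters all of these means.

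The glutathione, thioredoxin and detoxification branches lay close to all genes. Among 21 further genes of glutathione synthesis, conjugation and peroxidation, 13 were higher and 8 lower in null, with a median log2 ratio of 0.02. They ran from the conjugating enzyme *Gstm1* at −0.08 to the peroxidase *Gpx1* at 0.27. Of 16 tested, none was called and none had an unadjusted limma *P* under 0.05. The 14 genes of the thioredoxin system and of peroxide removal had a median of 0.03, from the reductase *Txnrd3* at −0.10 to catalase (*Cat*) at 0.23, and none of the 4 tested was called. The peroxiredoxins that sulfiredoxin repairs, *Prdx1* to *Prdx4*, ran from 0.03 for *Prdx1* to 0.10 for *Prdx2*, beside 0.39 for *Srxn1*. The 6 enzymes that supply NADPH had a median of −0.02, with 2 higher and 4 lower, from *Idh1* at −0.08 to *Taldo1* at 0.14. The 5 other detoxification genes with a mean of at least 10 were all higher, with a median of 0.07, from *Nqo2* at 0.01 to *Akr1b8* at 0.10.

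Genes of the ATF4 stress response, which shares *Slc7a11* with NRF2, had a median log2 ratio of 0.03, with 9 of 13 higher and none of 9 tested called. *Atf5* was lowest at −0.10. *Trib3* was highest at 0.64, with means of 80.7 and 126 normalized counts, and its single-library counts were not recovered. *Atf4* itself had a log2 ratio of 0.03 and *Asns*, its classic target in amino acid synthesis, one of 0.01. The list of metallothioneins, which bind metals and answer to oxidants as well, and of the transcription factor *Mtf1* had 4 of 4 genes higher, with a median of 0.32. *Mt2* was called, with a log2 fold change of 1.2 ± 0.18 (SE, limma adjusted *P* = 0.00384), and it was no longer called in 8 of 21 alternative fits, 7 of which leave out 1 library. *Mt1* had a log2 fold change of 0.38 ± 0.09 (SE, limma unadjusted *P* = 0.000853, adjusted *P* = 0.651) and was not called. *Mtf1* was lowest with a log2 ratio of 0.05.

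**Figure D5:**
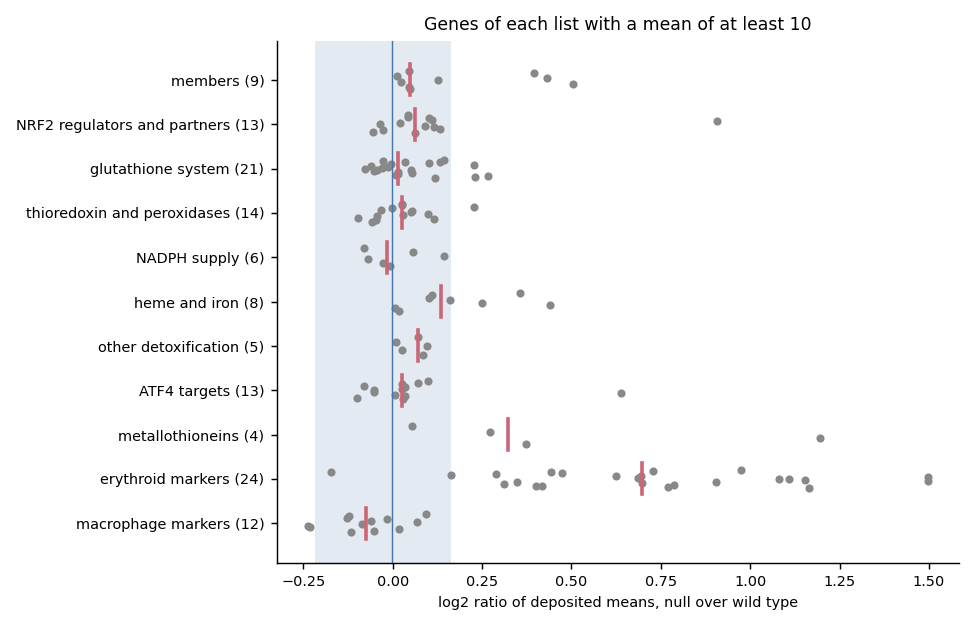
Log2 ratio of deposited means, null over wild type, for each gene with a mean of at least 10 in 11 gene lists (points, with the number of genes in brackets), the median of each list (red bars), and the median and the 5% to 95% range of all 13299 such protein-coding genes (blue line and band, −0.22 to 0.16). Most points of the glutathione, thioredoxin, NADPH and ATF4 lists lie in the band, and the erythroid markers, except *Hbb-bs* at −0.17, lie to its right with a median of 0.70.

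The genes whose pattern over the 10 libraries was most like each member were sought among 8634 protein-coding genes with a mean of at least 50, by Pearson's r of log2 normalized counts. *Nfe2l2* was most like *Vav2* (r = 0.95), *Keap1* most like *Herc6* (0.94) and *Gsr* most like *Impa1* (0.95). *Srxn1* was most like *Zfp874a* (0.94), *Hmox1* most like *Cd82* (0.92) and *Nqo1* most like the histone gene *Hist1h2bc* (0.93). *Nqo1* was also like *Hspa1b* (0.89), an inducible heat shock protein, and *Gclc* was like *Mt1* (0.86), a metallothionein. Only 6 of the 10 genes were among those compared, and none of these 6 was among the 3 genes most like another. With only 10 libraries and 8634 genes compared, high values of r arise readily, and they are given as a description.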

How the data were processed

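RNA-seq libraries of polyA RNA (KAPA Stranded mRNA-Seq, paired-end Illumina reads) were grouped by the genotype in their labels. Per the submitters' processing notes and the study's methods, the authors used FastQC 0.11.5, Trimmomatic 0.36, STAR within RSEM 1.2.31 (GENCODE annotation, GRCm38/mm10) and DESeq 1.24.0. The deposited signal values are group means of normalized counts, made by the authors by dividing gene-level counts by size factors. The table's fold change, log2 and p-value columns hold the authors' own comparison and were not used. RSEM shares reads among similar genes, and polyA capture weights the 3′ end where RNA is degraded, either of which could shift a level.

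Whole counts behind each mean were searched by lattice reduction (Python 3.11.15, numpy 2.4.6), with the limits given above, and the method was tested on simulated data. In wild type, counts were recovered for 100% of genes with a mean up to 10 and for 4.63% of those between 2000 and 5000. Protein-coding genes with a mean of at least 10 were fitted with limma 3.58.1 (R 4.3.3) on log2(normalized count + 1), with trend and robust moderation and Benjamini-Hochberg adjustment over all genes tested. Fold changes on this scale understate those of low genes. Exact permutation tests are two-sided over the 252 arrangements and cannot give a *P* below 0.00794. Exon lengths are from GENCODE on GRCm38. Alternatives changed the pseudocount (0.5, 5), the minimum mean, weighting, gene types, scaling, moderation, the recovery limit and the libraries. The members and lists were chosen with earlier results of these data known. Named genes are the members, the highest, lowest and called genes of each list and a few others described for their role after their values were seen. Intervals cover these libraries only, and PCR duplicates were not marked. The list of red blood cell precursor markers leaves out 1 gene that is not reported here.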

Additional observations from a re-analysis of the deposited data

Results flagged for a closer look

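In *Nqo1*, null library 2 stood far from the other null libraries. It held 50.3 normalized counts against 19.2 to 27.9 in the others, and its gap to the nearest was 0.718 of the range of the group, above the Dixon value of 0.71 for 5 samples. It was the only such library among 18 groups of 5 examined, where chance flags about 1 group in 20.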

How the results depend on the processing

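None of the members was called under any alternative in which it was fitted. *Gclm* could not be fitted at all, and *Slc7a11* was fitted only without a minimum mean. Over all genes, 3 were called, 2 or 3 under every other fit (the call lost in 8 fits being that of *Mt2*), and 413 at an unadjusted limma *P* under 0.05. The median log2 ratio of the members ran from 0.05 to 0.09 under the other minimum means and the pseudocount. Directions turned in 2 members. The log2 fold change of *Nqo1* ran from −0.23 to 0.14 with 1 library left out at a time, and its difference of means from −4.88 to 3.95 normalized counts, against 0.472 with all libraries and −0.0155 on log2 values. For *Gsr*, leaving out null library 1 turned the log2 fold change from 0.04 to −0.0018, in a range up to 0.0706, and the difference of means from 21.7 to −0.647, in a range up to 35.1. Exact permutation *P* for *Srxn1* was 0.159 with all libraries, 0.0238 without null library 3 and 0.317 without wild-type library 2. For *Hmox1* it was 0.0556 with all libraries, 0.0159 without wild-type library 4 and 0.103 without null library 5. The median of the ATF4 genes with recovered counts moved to −0.04 without wild-type library 3 and null library 2. The causes were not tested. No paired analysis was possible because the values carry no replicate numbers. Depth limits *Slc7a11* and *Nqo1*, and unsettled counts limit *Gclm*.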
